A study of Mus musculus with 4 samples.

Results

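Phagocytic and scavenger receptors are the surface and lysosomal proteins with which brain phagocytes take up debris, lipid and dying cells. The set described here holds 10 genes, Trem2, Tyrobp, Mertk, Axl, Cd36, Msr1, Cd68, Stab1, Cd163 and Mrc1. They were picked by symbol from the 31053 genes in the deposited matrices, and each symbol matched 1 gene in all 4 libraries. The cells were leukocytes with high CD45 sorted from the ischemic hemisphere of C57/BL6 mice 14 or 5 days after tMCAO, an experimental stroke made by closing the middle cerebral artery for a time and then letting blood back in. Each day has 2 libraries made with 10x Single Cell 3' v2 reagents, and every mouse had the occlusion, so the only contrast between samples is day 14 against day 5. The labels give no age and do not say how many mice went into a library, so a p-value measures at most the spread between libraries, which may be technical. Microglia generally carry less CD45 than blood-derived leukocytes, so the sort decides which microglia are seen and in what share.

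The receptors divide by what they bind. TREM2 senses lipids and lipoproteins and signals through the adaptor TYROBP. MERTK and AXL are receptor tyrosine kinases that recognise phosphatidylserine on dying cells through the bridging ligands GAS6 and protein S. CD36 and MSR1 are scavenger receptors for oxidised lipids and modified lipoproteins, and CD68 is a heavily glycosylated protein of late endosomes and lysosomes. STAB1, CD163 and MRC1 are the endocytic receptors that classically mark perivascular and meningeal macrophages, with CD163 taking up haemoglobin bound to haptoglobin and MRC1 binding mannosylated glycoproteins.

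The promoters of 4 members are shown to compare windows with and without the letters searched: Trem2, which was highest in the microglial states, and Stab1, Mrc1 and Cd163, which were highest in border-associated macrophages. Each sequence is the RefSeq promoter on GRCm38.p6, 5′ to 3′ on the gene's strand, from 250 bases before to 50 bases after the start. Capitals mark the letters GAGGAA on either strand, a run of letters that PU.1 and other ETS factors of myeloid cells are known to bind.
Trem2 (chr17:48346151-48346450, plus strand): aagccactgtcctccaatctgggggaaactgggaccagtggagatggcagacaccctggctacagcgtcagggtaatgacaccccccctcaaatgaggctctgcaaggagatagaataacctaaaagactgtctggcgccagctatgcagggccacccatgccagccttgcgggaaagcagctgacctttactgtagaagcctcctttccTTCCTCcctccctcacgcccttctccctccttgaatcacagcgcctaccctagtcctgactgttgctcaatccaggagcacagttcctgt
Stab1 (chr14:31168592-31168891, minus strand): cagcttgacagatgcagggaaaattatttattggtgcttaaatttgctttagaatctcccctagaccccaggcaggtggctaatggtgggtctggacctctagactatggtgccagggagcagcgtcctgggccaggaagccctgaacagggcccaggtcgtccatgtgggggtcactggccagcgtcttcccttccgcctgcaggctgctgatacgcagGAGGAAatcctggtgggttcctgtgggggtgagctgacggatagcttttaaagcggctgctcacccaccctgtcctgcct
Mrc1 (chr2:14229164-14229463, plus strand): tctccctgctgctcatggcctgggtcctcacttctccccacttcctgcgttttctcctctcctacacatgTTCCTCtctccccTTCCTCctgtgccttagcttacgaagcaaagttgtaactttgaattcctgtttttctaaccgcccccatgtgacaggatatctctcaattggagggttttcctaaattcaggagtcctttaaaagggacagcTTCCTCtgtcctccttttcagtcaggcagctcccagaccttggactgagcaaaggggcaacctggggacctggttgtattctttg
Cd163 (chr6:124304401-124304700, plus strand): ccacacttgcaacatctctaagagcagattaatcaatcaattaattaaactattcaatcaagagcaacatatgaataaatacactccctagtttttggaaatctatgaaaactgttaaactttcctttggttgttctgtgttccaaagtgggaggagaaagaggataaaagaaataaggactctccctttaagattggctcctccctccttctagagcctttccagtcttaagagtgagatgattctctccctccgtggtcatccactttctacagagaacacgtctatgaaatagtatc
The letters occurred 1 time in the Trem2 window, 1 time in Stab1, 3 times in Mrc1 and 0 times in Cd163. Among the 8 members that the promoter table holds, Cd68 had 2 matches, Axl had 1, and Mertk and Cd36 had none. Of all 32851 promoters of this length, 28.3% held GAGGAA. Searched on both strands, the interferon-stimulated response element (3.44% of all promoters), the E-box CACGTG (7.15%) and the MAF letters TGCTGAC (4.67%) were in none of the 8 windows. These matches describe the letters in the window only.

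Cells were placed into populations by marker genes that exclude all 10 receptors. P2ry12-high microglia numbered 39 and 14 on day 14, against 281 and 692 on day 5. Disease-associated phagocytes, which keep microglial genes and carry genes such as Cst7, Lpl and Igf1, numbered 131 and 75 on day 14, against 236 and 338 on day 5. Ly6c2 monocytes numbered 175 and 296 on day 14, against 99 and 114 on day 5. Ms4a7 macrophages, with Ms4a7 and Lyz2 but few microglial genes, numbered 85 and 167 on day 14, against 265 and 249 on day 5. Border-associated macrophages (2 and 7 cells on day 14, 22 and 49 on day 5) and Cd5l microglia (2 and 1 on day 14, 77 and 37 on day 5) were too few on day 14 for a comparison of days. These 6 populations hold 3453 of the 10274 cells kept.

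The libraries held 2313 to 2583 barcodes on day 14 and 2543 to 3486 on day 5, with 9288054 to 10759904 UMIs (counted RNA molecules) per library on day 14 and 10730791 to 13610119 on day 5. Any pair of libraries shared 5 to 16 barcodes. Levels are UMIs of a gene per 1000000 UMIs of the summed cells of a population in a library (CPM). A list of 9 endothelial, platelet and glial genes summed to at most 71.3 CPM in the phagocyte sums of 10 or more cells. A list of 10 T cell genes summed to 24.5 to 98.0 CPM in P2ry12-high microglia, disease-associated phagocytes, Ly6c2 monocytes and Ms4a7 macrophages on day 14, against 0 to 9.40 CPM in the same populations on day 5. Lymphocytes do not use these receptors as a rule, and their sums are therefore given as the background for each gene. The day 5 matrices carry a software version in their header and the day 14 matrices do not, so any difference in upstream processing cannot be told apart from the day.

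**Figure D1:**
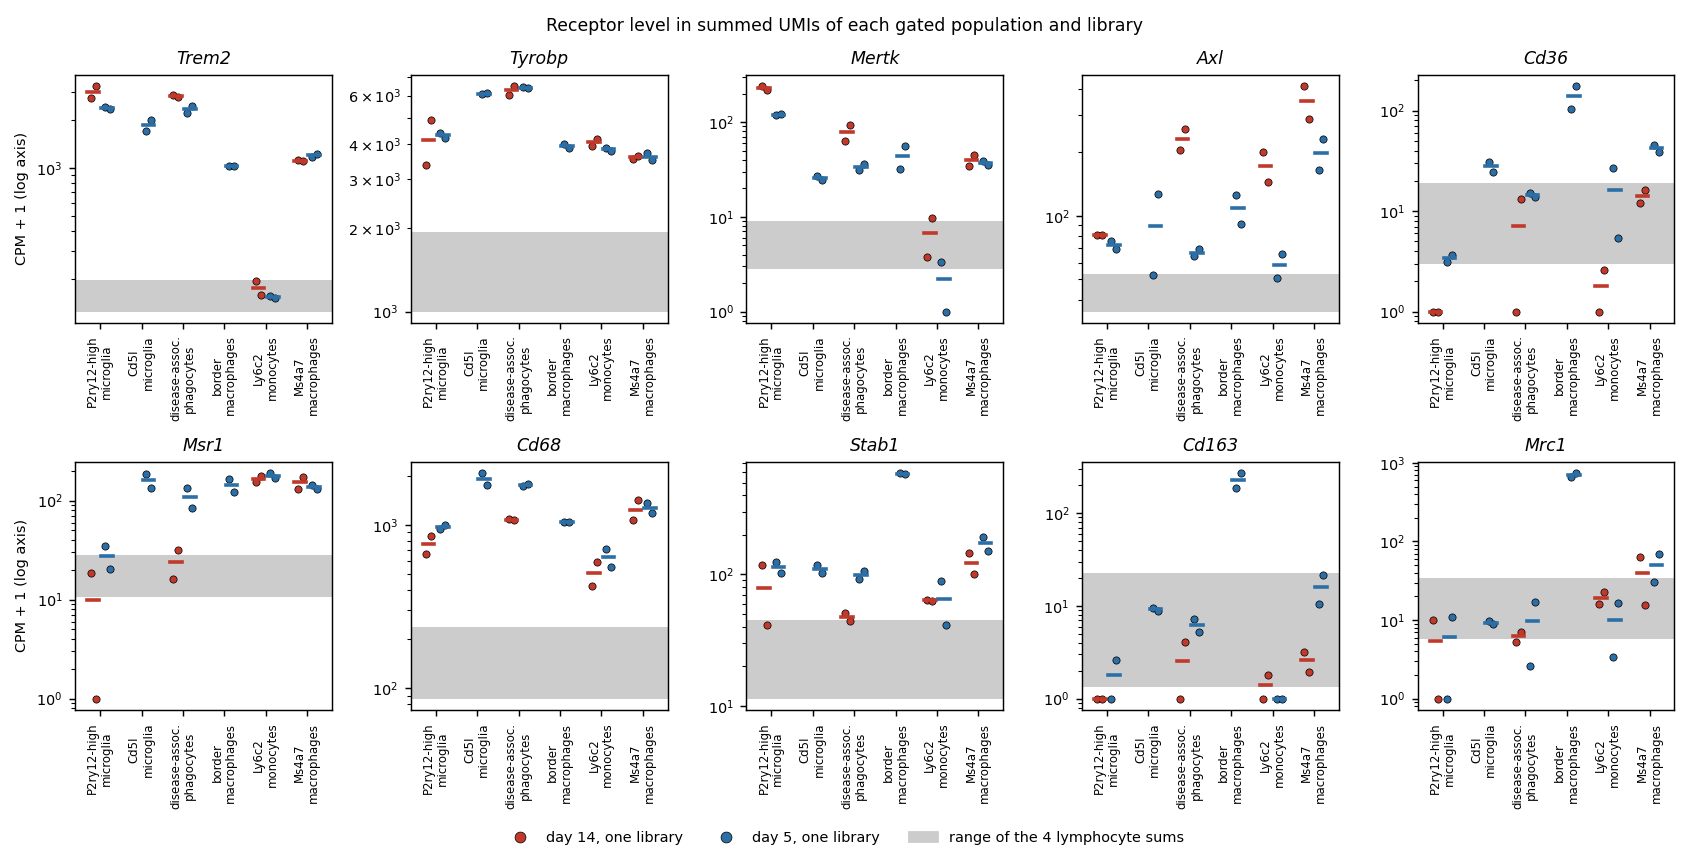
Level of each receptor (CPM + 1, log axis) in summed UMIs of each gated population, 1 point per library with 10 or more cells, day 14 left of day 5, bars for the mean of 2 libraries, grey band for the range of the 4 lymphocyte sums. Mertk is highest in P2ry12-high microglia, Stab1, Cd163 and Mrc1 in border-associated macrophages, and Axl in Ms4a7 macrophages.

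Within disease-associated phagocytes, Axl, Mertk and Trem2 rose on day 14 and Msr1, Cd68 and Stab1 fell, which is 6 of the 7 members tested by edgeR's quasi-likelihood test (3 in DESeq2), while 10.2% of all 4718 genes had a Benjamini-Hochberg adjusted p under 0.05 (6.66% rose and 3.54% fell). In Ly6c2 monocytes only Axl rose, 1 of 6 members tested, where 5.20% of 5466 genes were called (3.82% rose and 1.37% fell). In Ms4a7 macrophages Axl rose and Cd36 fell, 2 of the 9 members that reached the filter on low counts (10 UMIs in a sum of median depth) on both days, where 6.81% of 7318 genes were called (5.06% rose and 1.75% fell). Cd163 was also called there but entered the test only through its day 5 sums, and DESeq2 called 1 of the 10 members. In P2ry12-high microglia 0 of 7 members passed in edgeR and 0 in DESeq2, which left 1 without an adjusted p, with 2 and 1 at an unadjusted p under 0.05, and 0.611% of 5565 genes were called there (0.485% rose and 0.126% fell) from 53 day 14 cells. With clusters in place of the gate, Axl (log2 1.55, adjusted p = 4.49e-06) and Stab1 (−0.82, 0.0396) were called there. Too few UMIs kept Cd36, Cd163 and Mrc1 out of the tests in P2ry12-high microglia and disease-associated phagocytes, and these 3 and Mertk out of that in Ly6c2 monocytes.

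**Figure D2:**
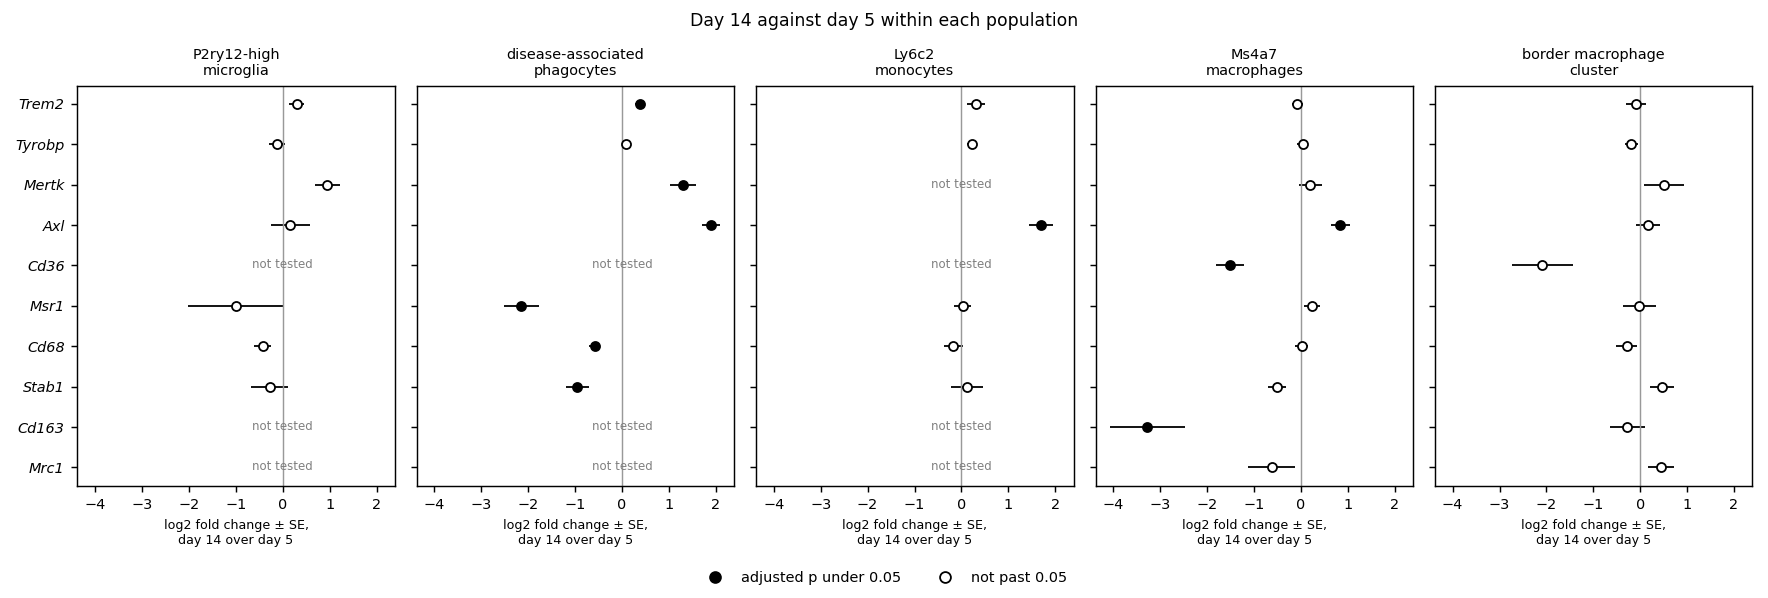
Day effect of each receptor within 5 populations, as log2 fold change of day 14 over day 5 ± SE (edgeR), filled where the adjusted p is under 0.05 and marked where a gene was not tested. Axl lies right of 0 with a filled point in disease-associated phagocytes, Ly6c2 monocytes and Ms4a7 macrophages, and the border macrophage cluster has no filled point.

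The make-up of the gated cells also moved with the day. Of the Ms4a7 macrophages, 68.2% and 88.6% lay in a cluster led by Cfb, Arg1, Ly6i, Ms4a4c and Ly6c2 on day 14, and 73.6% and 67.9% in a cluster led by Ms4a7, Ecm1, Pla2g7 and Gpnmb on day 5. A list of 8 Ly6c2 monocyte genes summed to 5224 to 6321 CPM in them on day 14, against 1613 to 2541 CPM on day 5. The 10 disease-associated phagocyte genes also summed higher in them, to 20483 to 32092 CPM on day 14, against 7674 to 7987 CPM on day 5, and Spp1 alone gave 15192 and 24793 CPM on day 14, against 3918 and 4122 CPM on day 5. Of the Ly6c2 monocytes, 84.6% and 91.9% lay in the Cfb-led cluster on day 14, while on day 5 a cluster led by the progenitor granule genes Elane, Mpo, Prtn3 and Ctsg held 44.4% and 63.2%. With clusters in place of the gates, both of these clusters counted as Ly6c2 monocytes, the Cfb-led one with its Ms4a7 macrophages. Disease-associated phagocytes lay mostly in 1 cluster on both days, led by Cd5l, Igf1 and Mmp12, with 67.9% and 58.7% on day 14, against 60.2% and 55.6% on day 5. Another cluster, led by P2ry12, held 26.7% and 29.3% of them on day 14, against 13.1% and 19.2% on day 5, and a cluster led by the cell division genes Birc5, Ccnb2 and Ube2c held 7 of 131 and 3 of 75 of them on day 14, against 59 of 236 and 72 of 338 on day 5. In disease-associated phagocytes 11 homeostatic microglia genes summed to 6328 to 7349 CPM on day 14, against 9278 to 9521 CPM on day 5. In the same cells 10 dissociation and stress genes summed to 4702 to 5509 CPM on day 14, against 2818 to 3433 CPM on day 5, and 7 of 9 tested rose, where 6.66% of all genes rose, Fos by 1.18 ± 0.13 (log2, adjusted p = 7.91e-06). In Ly6c2 monocytes they summed to 8498 to 9065 CPM on day 14, against 7296 to 7720 CPM on day 5, and 3 of 9 rose, where 3.82% of all genes rose. The 7 genes of the plasmacytoid dendritic cell list summed to 1007 to 1110 CPM in Ly6c2 monocytes on day 14, against 347 to 363 CPM on day 5. In Ms4a7 macrophages they summed to 1607 to 1620 CPM on day 14, against 742 to 983 CPM on day 5, and in disease-associated phagocytes to 1231 to 1408 CPM on day 14, against 728 to 807 CPM on day 5. Bst2, which interferon is known to induce in many cell types, gave most of each of these sums, while Ccr9, Ly6d and Klk1 of the list were at 0 to 8.67 CPM in these 3 populations on both days. The part of any of these differences in the receptor results was not tested.

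Trem2 was highest in the microglial states. P2ry12-high microglia had 2753 and 3272 CPM on day 14, against 2394 and 2348 CPM on day 5. Disease-associated phagocytes had 2857 and 2777 CPM on day 14, against 2211 and 2458 CPM on day 5. The days do not overlap in either population, yet only the difference in disease-associated phagocytes passed the test, with a log2 fold change of 0.39 ± 0.10 (SE) and an adjusted p of 0.0217 (edgeR, 2 libraries per day), against 0.30 ± 0.15 and an adjusted p of 0.572 in P2ry12-high microglia; whether the effects differ was not tested. The call was lost without day 5 replicate 1 (log2 0.31, adjusted p = 0.404), without day 5 replicate 2 (0.43, 0.208), without day 14 replicate 2 (0.41, 0.113), in DESeq2 (0.37, 0.258), with no filter on low counts (0.28, 0.142), with mixed cells kept (0.29, 0.0800) and with a stricter gate (0.21, 0.456). Disease-associated phagocytes over P2ry12-high microglia in the same libraries gave 0.24 ± 0.10 (adjusted p = 0.0524), and it was past the threshold without day 14 replicate 2 (0.31, 0.0325), with no filter (0.32, 0.0324), with mixed cells kept (0.26, 0.0390) and at the highest library floor (0.30, 0.0106). With 10 or more UMIs required in every sum it was −0.08 (0.355).

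Among the other phagocytes Ms4a7 macrophages had 1116 and 1097 CPM on day 14, against 1176 and 1222 CPM on day 5, and border-associated macrophages had 1025 and 1029 CPM on day 5. Ly6c2 monocytes had 192 and 157 CPM on day 14, against 156 and 151 CPM on day 5. Lymphocytes had 140.2 and 124 CPM on day 14, against 195 and 192 CPM on day 5, so the monocyte level lies at the background. The day effect of Trem2 in Ly6c2 monocytes was 0.31 ± 0.19 (log2, adjusted p = 0.420) by the gate and 0.88 (0.00450) by clusters. On day 14 those clusters include most of the gated Ms4a7 macrophages. Ms4a7 macrophages exceeded Ly6c2 monocytes by 2.89 ± 0.14 (log2, adjusted p = 1.38e-08) and gave −0.97 ± 0.13 over P2ry12-high microglia (adjusted p = 4.08e-12). Border-associated macrophages over P2ry12-high microglia gave −1.23 ± 0.17 (adjusted p = 1.24e-08, day 5 libraries only).

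Tyrobp, the adaptor that many other myeloid receptors also use, was high in all 6 phagocyte populations. Disease-associated phagocytes had 6032 and 6502 CPM on day 14 and 6427 and 6392 CPM on day 5. P2ry12-high microglia had 3385 and 4889 CPM on day 14 and 4413 and 4219.7 CPM on day 5. The disease-associated state was therefore the higher in every library, by 0.89 ± 0.09 on the log2 scale (adjusted p = 2.93e-08, library as a block). The days overlapped in both, and no population had a called day effect for Tyrobp, with fitted values from −0.19 in the border macrophage cluster to 0.22 in Ly6c2 monocytes. Ms4a7 macrophages (3545 to 3646 CPM on day 14 and 3511 to 3724 CPM on day 5) over P2ry12-high microglia gave 0.01 ± 0.13 (adjusted p = 0.958), a value that was −0.30 (0.0455) with clusters in place of the gates. Border-associated macrophages, at 4006 and 3889 CPM on day 5, gave −0.15 ± 0.16 (adjusted p = 0.631) by gates, −0.40 (0.0307) with mixed cells kept and −0.73 (0.00118) by clusters. Lymphocytes, which here include NK cells that use TYROBP themselves, had 999 and 1319 CPM on day 14 and 1928 and 1549 CPM on day 5.

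Mertk was highest in P2ry12-high microglia, above disease-associated phagocytes, Ms4a7 macrophages and border-associated macrophages. P2ry12-high microglia had 241 and 219 CPM on day 14, from 27 and 11 UMIs, against 118 and 120 CPM on day 5. Disease-associated phagocytes had 62.9 and 91.8 CPM on day 14, against 30.0 and 35.4 CPM on day 5. In each population both day 14 libraries lie above both day 5 libraries. The rise passed the test in disease-associated phagocytes (1.30 ± 0.29, adjusted p = 0.00738) and did not in P2ry12-high microglia (0.95 ± 0.27, adjusted p = 0.153). It was lost without day 5 replicate 1 (1.20, adjusted p = 0.0638), without day 5 replicate 2 (1.40, 0.0609), without day 14 replicate 2 (1.04, 0.196), in DESeq2 (1.32, 0.115), with a stricter gate (1.42, 0.0818) and with clusters (1.22, 0.234).

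Across populations of the same libraries, Mertk differed by −1.50 ± 0.18 (log2, adjusted p = 2.32e-07) in disease-associated phagocytes over P2ry12-high microglia. The same ratio was −1.73 ± 0.18 (adjusted p = 1.98e-21) for Ms4a7 macrophages and −1.35 ± 0.35 (adjusted p = 0.00328) for border-associated macrophages, the last from 14 UMIs and with an adjusted p of 0.450 in DESeq2. Ms4a7 macrophages had 33.2 and 44.2 CPM on day 14 and 37.8 and 34.5 CPM on day 5. Ly6c2 monocytes had 2.74 and 8.81 CPM on day 14, against 2.37 and 0 CPM on day 5, which overlaps the lymphocyte sums of 7.52 and 7.99 CPM on day 14 and 2.01 and 1.83 CPM on day 5. Ms4a7 macrophages had 165 UMIs of Mertk in all and Ly6c2 monocytes 14, too few for the filter in any monocyte sum.

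Axl, the other kinase of the pair, was highest in Ms4a7 macrophages and rose on day 14 in 3 populations. Ms4a7 macrophages had 411 and 287 CPM on day 14, against 165 and 229.6 CPM on day 5. Disease-associated phagocytes had 204 and 257 CPM on day 14, against 63.2 and 68.7 CPM on day 5. Ly6c2 monocytes had 199 and 144 CPM on day 14, against 49.8 and 64.6 CPM on day 5. The days do not overlap in these 3 populations. The log2 fold change was 0.84 ± 0.20 in Ms4a7 macrophages (adjusted p = 0.0154), 1.90 ± 0.19 in disease-associated phagocytes (4.52e-06) and 1.70 ± 0.25 in Ly6c2 monocytes (0.00617).

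The Axl rise in disease-associated phagocytes and in Ly6c2 monocytes was called under all 13 alternatives fitted, while in Ms4a7 macrophages it was lost without day 5 replicate 1 (0.60, adjusted p = 0.121) and with a stricter gate (0.76, 0.0761). In the gated P2ry12-high microglia Axl had 80.2 and 79.8 CPM on day 14 and 75.0 and 68.4 CPM on day 5 (0.16 ± 0.42, adjusted p = 0.949), from 13 day 14 UMIs. In the P2ry12-high cluster, taken in place of the gate, the value was 1.55 ± 0.16 (adjusted p = 4.49e-06). Of the 143 day 14 cells of that cluster, 57 were gated as disease-associated phagocytes, against 96 of 940 on day 5. The difference of the day effect between Ms4a7 macrophages and P2ry12-high microglia was 0.79 ± 0.43 (adjusted p = 0.664) by gates and −0.65 (0.222) by clusters. The lymphocyte sums, at 34.2 and 47.3 CPM on day 14 and 52.2 and 40.2 CPM on day 5, overlapped between days.

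Ms4a7 macrophages exceeded P2ry12-high microglia in Axl by 1.79 ± 0.17 on the log2 scale (adjusted p = 7.16e-25) and Ly6c2 monocytes by 1.39 ± 0.17 (adjusted p = 5.26e-05). Thinned to 1000 UMIs per cell, an Axl UMI was seen in 34.1% and 23.4% of Ms4a7 macrophages in the day 14 libraries, against 16.7% and 17.3% in the day 5 libraries, after 1 shallower day 5 cell was left out. The thinned share of lymphocytes was 1.66% on day 14 and 1.79% on day 5. Without thinning, Axl was seen in 75.0% of Ms4a7 macrophages on day 14 and 51.4% on day 5, at a median of 5758 and 5285 UMIs per cell, and in 7.18% and 6.33% of lymphocytes, at 2405 and 1638 UMIs. In single cells, Axl without a Mertk UMI was seen in 59.1% of Ms4a7 macrophages on day 14 and 42.2% on day 5. Mertk without an Axl UMI was seen in 45.3% of P2ry12-high microglia on day 14 and 22.8% on day 5. These single-cell shares are unthinned and a missing UMI is not an absent transcript.

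Msr1, the class A scavenger receptor, fell in disease-associated phagocytes on day 14 and had no called day effect in monocyte-derived cells by the gates. Ly6c2 monocytes had 152 and 175 CPM on day 14 and 189.6 and 167 CPM on day 5, and Ms4a7 macrophages had 130.4 and 174 CPM on day 14 and 144 and 130.1 CPM on day 5. Disease-associated phagocytes had 15.2 and 30.6 CPM on day 14, against 134 and 82.7 CPM on day 5. Their day 14 values lie near the 9.59 and 23.0 CPM of day 14 lymphocytes. The fall was −2.15 ± 0.38 (log2, adjusted p = 0.00116), and it was lost without day 14 replicate 2 (−2.65, adjusted p = 0.132) and with clusters (−0.87, 0.105).

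P2ry12-high microglia had 17.8 and 0 CPM of Msr1 on day 14, against 33.8 and 19.6 CPM on day 5, close to the lymphocyte background. Disease-associated phagocytes over P2ry12-high microglia gave 2.22 ± 0.22 (adjusted p = 9.98e-09), Ms4a7 macrophages over P2ry12-high microglia 2.67 ± 0.20 (2.77e-40) and border-associated macrophages over P2ry12-high microglia 2.44 ± 0.38 (3.10e-07). Ms4a7 macrophages over Ly6c2 monocytes gave −0.15 ± 0.13 (adjusted p = 0.434). The day effect of Msr1 in Ms4a7 macrophages was 0.23 ± 0.17 (adjusted p = 0.540) by the gate and −1.56 (0.0162) by the cluster, which held 28 and 26 day 14 cells. Cd5l microglia, measured on day 5 only, had 185 and 134 CPM.

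Cd36, the fatty acid and oxidised lipoprotein receptor, was scarce outside border-associated macrophages, which had 104 and 176 CPM on day 5 from 10 and 35 UMIs. Ms4a7 macrophages had 11.1 and 15.4 CPM on day 14, against 44.8 and 37.6 CPM on day 5, without overlap. This fall was −1.51 ± 0.31 (log2, adjusted p = 0.00554), and it was lost in DESeq2 (−1.55, 0.124) and with clusters (−2.17, 0.217). Lymphocytes also had less, at 2.59 and 2.00 CPM on day 14 and 18.1 and 11.0 CPM on day 5, and the part of free RNA in the fall was not tested. P2ry12-high microglia had only 7 UMIs of Cd36 on day 5, so that the gene could enter a test against them only through the other population. Ms4a7 macrophages exceeded Ly6c2 monocytes by 2.09 ± 0.45 (adjusted p = 0.00439) by gates and by 0.31 (0.525) by clusters. The gated monocytes had 0 to 26.1 CPM over the 4 libraries (mean 8.03), which overlaps the 2.00 to 18.1 CPM of lymphocytes.

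Cd68, the lysosomal glycoprotein, was present in all 6 phagocyte populations and, on day 5, highest in Cd5l microglia and disease-associated phagocytes. Cd5l microglia had 2081 and 1768 CPM on day 5. Disease-associated phagocytes had 1086 and 1072 CPM on day 14, against 1733 and 1781 CPM on day 5. The days are well apart, and the fall was −0.59 ± 0.11 (log2, adjusted p = 0.00226); it was lost without day 5 replicate 1 (−0.61, adjusted p = 0.0960), without day 5 replicate 2 (−0.60, 0.0976), without day 14 replicate 2 (−0.57, 0.0572) and with clusters (−0.40, 0.184). P2ry12-high microglia had 659 and 858 CPM on day 14 and 937 and 996 CPM on day 5 (−0.43 ± 0.18, adjusted p = 0.452). Disease-associated phagocytes exceeded them by 1.02 ± 0.11 (adjusted p = 3.17e-08). Lymphocytes had 85.3 to 237 CPM of Cd68 over the 4 libraries, and the part of free RNA in the fall in disease-associated phagocytes was not tested.

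Among monocyte-derived cells, Ms4a7 macrophages had 1065 and 1413 CPM of Cd68 on day 14 and 1354 and 1186 CPM on day 5. Ly6c2 monocytes had 424 and 593 CPM on day 14 and 716 and 550.1 CPM on day 5. The macrophages were higher in every library, by 1.24 ± 0.12 (log2, adjusted p = 5.33e-06), and the days overlapped in both. Border-associated macrophages had 1035 and 1044 CPM on day 5 and did not pass against P2ry12-high microglia by gates (0.08 ± 0.17, adjusted p = 0.838), while clusters gave −0.78 (0.000357).

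Stab1, Cd163 and Mrc1 were highest in the border-associated macrophages. None of them was a gate gene, but Lyve1 and Cbr2 were, and these correlated with Mrc1 at 0.889 and 0.865 (Pearson, over the sums). The level of Mrc1 is thus not independent of the gate. On day 5 the border-associated macrophages of the 2 libraries had 590.0 and 577 CPM of Stab1, 186 and 271 CPM of Cd163 and 652 and 743 CPM of Mrc1. P2ry12-high microglia of the same libraries had 124 and 102 CPM of Stab1, 0 and 1.59 CPM of Cd163 and 0 and 10.1 CPM of Mrc1. The log2 fold change of Stab1 over P2ry12-high microglia was 2.37 ± 0.19 (adjusted p = 3.60e-17). Cd163 and Mrc1 had 3 and 19 UMIs in the microglia, under the filter in both libraries, and entered the test only through the border-associated macrophages, with 72 and 211 UMIs. Of the 7 members that reached the filter in both populations, 2 were higher and 2 lower, where 14.5% of 5872 genes were called (6.98% higher and 7.54% lower). With Cd36, Cd163 and Mrc1 edgeR called 7 of all 10, and DESeq2 called 6. Thinned to 1000 UMIs, 42.9% of 70 border-associated macrophages had an Mrc1 UMI and 22.9% a Cd163 UMI on day 5, against 0.298% and 0.595% of lymphocytes; without thinning the shares were 80.3% and 47.9%, against 3.17% and 2.64% of lymphocytes, at medians of 3271 and 1638 UMIs per cell.

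Outside that population the 3 receptors separated. Stab1 was also above background in Ms4a7 macrophages, with 144 and 98.9 CPM on day 14 and 192 and 149.7 CPM on day 5, and in disease-associated phagocytes, with 49.8 and 42.9 CPM on day 14 against 91.6 and 105 CPM on day 5. Lymphocytes also had less Stab1 on day 14, at 14.3 and 10.3 CPM, against 42.1 and 43.8 CPM on day 5. The part of free RNA in the lower day 14 level of disease-associated phagocytes was not tested. Cd5l microglia, measured on day 5 only, had 102 to 116 CPM. Over the 4 libraries P2ry12-high microglia had 39.9 to 124 CPM and Ly6c2 monocytes 40.1 to 87.7 CPM. Disease-associated phagocytes over P2ry12-high microglia gave −0.004 ± 0.18 (log2, adjusted p = 0.989, edgeR). The fall of Stab1 in disease-associated phagocytes was −0.96 ± 0.24 (log2, adjusted p = 0.0177). It was lost without day 5 replicate 1 (−1.05, adjusted p = 0.0635), without day 5 replicate 2 (−0.88, 0.138), without day 14 replicate 2 (−0.87, 0.217) and in DESeq2 (−0.98, 0.282).

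Cd163 in Ms4a7 macrophages was 2.21 and 0.961 CPM on day 14, 1 UMI in each library, against 9.46 and 20.4 CPM on day 5. It entered the test only through its day 5 sums and was called (adjusted p = 0.0203), which was lost without day 14 replicate 2 (0.175), in DESeq2 (0.186) and with mixed cells kept (0.140). These levels lay beside lymphocyte levels of 2.07 and 0.333 CPM on day 14 and 10.0 and 21.9 CPM on day 5. P2ry12-high microglia had 0 UMIs of Cd163 on day 14, which allows up to 18.5 CPM by counting error alone. The summed Cd163 level of Ms4a7 macrophages thus overlapped that of lymphocytes on both days. On day 5, 22 of 514 Ms4a7 macrophages had a Cd163 UMI, and 16 of these 22 also had an Mrc1 UMI. Mrc1 in Ms4a7 macrophages varied between libraries of a day, with 61.9 and 14.4 CPM on day 14 and 29.6 and 69.0 CPM on day 5 (−0.62 ± 0.50, adjusted p = 0.589). Without day 14 replicate 1 its value was −1.67 and without day 5 replicate 1 it was −1.14, so the value depends on which library is left out. Stab1 in Ms4a7 macrophages had −0.52 ± 0.19 (adjusted p = 0.154), and −0.74 (0.00346) without day 14 replicate 1. Ms4a7 macrophages exceeded Ly6c2 monocytes in Mrc1 by 1.40 ± 0.42 (adjusted p = 0.0267), a call lost without day 5 replicate 1 (1.19, 0.0703), without day 5 replicate 2 (1.08, 0.112), without day 14 replicate 1 (1.16, 0.134) and with clusters (0.60, 0.280). Ly6c2 monocytes had 15.1 and 21.6 CPM of Mrc1 on day 14 and 2.37 and 15.6 CPM on day 5, which overlaps the lymphocyte sums of 12.2 and 4.66 CPM on day 14 and 10.0 and 32.9 CPM on day 5.

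A day comparison for border macrophages was only possible in a Leiden cluster, led by Mrc1, Pf4, Ccl8, Lyve1 and Cd209f after clustering without the 10 receptors. This cluster had 17 and 15 cells on day 14, against 51 and 171 on day 5. Of these, 1 and 7 were gated as border-associated macrophages on day 14, against 12 and 35 on day 5. It also held gated Ms4a7 macrophages, 3 in day 14 replicate 1, and 8 and 29 on day 5. Its day effects are thus not those of gated border-associated macrophages alone. All 10 members were tested and 0 passed in edgeR and 0 in DESeq2, with 1 at an unadjusted p under 0.05 by each tool, and 0.628% of 2707 genes were called. The value furthest from 0 was that of Cd36, at −2.09 ± 0.64 (log2, adjusted p = 0.324), from 4 UMIs on day 14. Mrc1 had 0.43 ± 0.27 (adjusted p = 0.673), Stab1 0.46 ± 0.26 (0.632) and Cd163 −0.28 ± 0.37 (0.881).

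Over all kept cells of a library, 9 of the 10 receptors were lower on day 14 without overlap. How many of all genes were lower in this way was not counted, so the 9 cannot be read as particular to the receptors. Gated lymphocytes numbered 1306 and 798 on day 14, against 179 and 200 on day 5. Trem2 averaged 409.6 ± 43.7 CPM on day 14 and 1081 ± 145 CPM on day 5 (SD, n = 2 libraries each), a ratio of 0.379. Cd68 averaged 374 ± 94.7 CPM on day 14 and 867 ± 25.8 CPM on day 5, and Stab1 34.5 ± 2.98 CPM on day 14 and 106 ± 4.30 CPM on day 5. Axl was the exception, with 98.3 and 122 CPM on day 14 and 94.1 and 99.6 CPM on day 5. With 2 libraries per day the two-sided exact permutation test cannot give a p below 0.333, which the 9 receptors have, while Axl has 0.667. With mixed cells kept, Msr1 overlapped between days and Axl did not. At this level fewer cells of a type and less RNA per cell cannot be told apart. The shares of the microglial populations among the cells were also lower without overlap: P2ry12-high microglia were 1.58% and 0.618% of kept cells on day 14, against 11.9% and 21.7% on day 5, and disease-associated phagocytes 5.31% and 3.31% on day 14, against 10.0% and 10.6% on day 5 (exact permutation p = 0.333 for each). Ly6c2 monocytes had a higher share, also without overlap, at 7.09% and 13.1% on day 14, against 4.20% and 3.58% on day 5 (exact permutation p = 0.333). The mean difference in the share of disease-associated phagocytes was −6.01 percentage points by the gate and −0.0886 by the stricter gate.

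The receptors' UMIs were spread over the populations differently on the 2 days. P2ry12-high microglia held 12.5% of Mertk UMIs on day 14 and 43.6% on day 5, and 6.14% of Trem2 UMIs on day 14 and 29.0% on day 5. Ly6c2 monocytes held 38.7% of Msr1 UMIs on day 14 and 10.6% on day 5, and 15.6% of Axl UMIs on day 14 and 2.48% on day 5. Dendritic cells, whose cross-presenting subset is known to carry CD36, held 56.9% of Cd36 UMIs on day 14 and 14.4% on day 5. Border-associated macrophages were 0.195% of kept cells on day 14 and 1.24% on day 5, yet held 16.7% of Cd163 UMIs on day 14 and 25.6% on day 5. The day 14 value comes from 9 cells, of which 3 had a Cd163 UMI. Dendritic cells held 35.8% of Cd163 UMIs on day 14 and 17.9% on day 5. Ungated cells held 14.2% to 22.8% of each receptor's UMIs on day 14 and 25.7% to 36.4% on day 5.

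**Figure D3:**
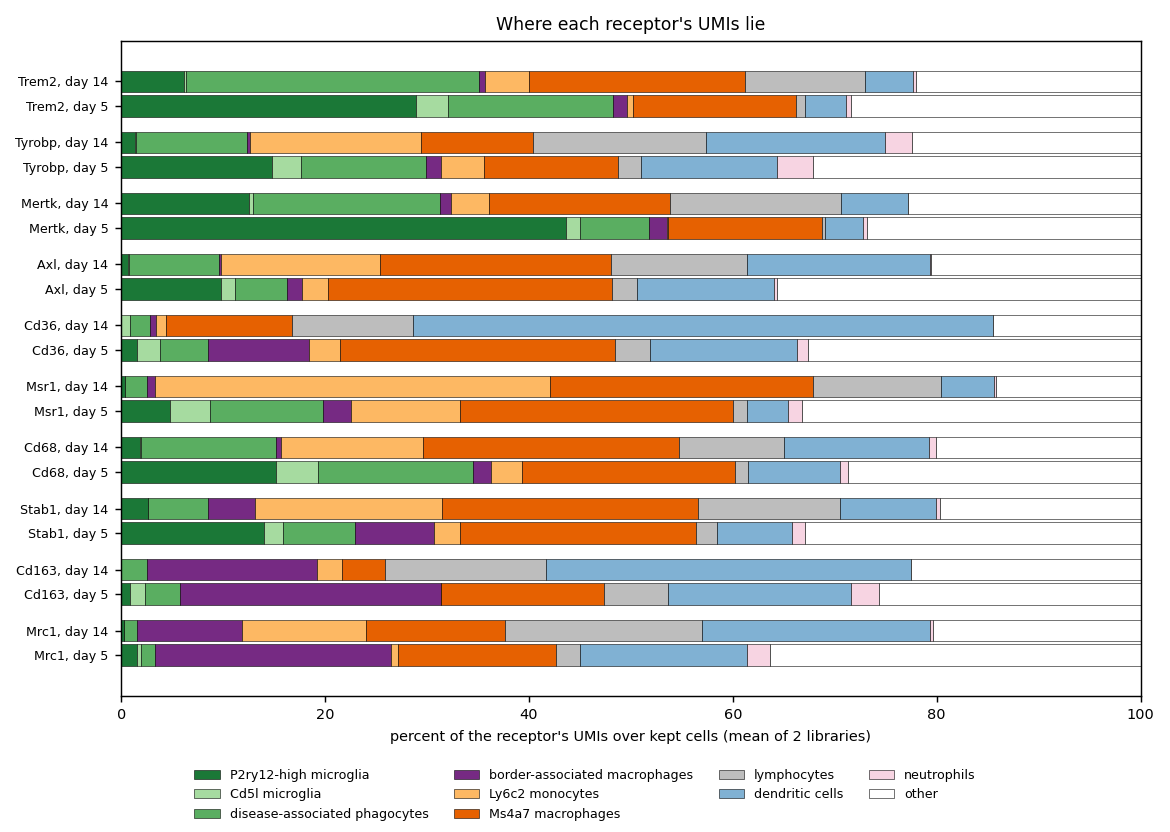
Share of each receptor's UMIs by population over all kept cells, mean of 2 libraries, day 14 above day 5. The dark green part of the Mertk bar, for P2ry12-high microglia, is 12.5% on day 14 and 43.6% on day 5, and the purple part, for border-associated macrophages, is widest for Cd163 and Mrc1.

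Counted over members, 5 of 7 tested were called in disease-associated phagocytes over P2ry12-high microglia, 4 higher and 1 lower, where 37.1% of 6089 genes were called (19.7% higher and 17.4% lower). The fourth higher member was Axl at 0.53 ± 0.20 (adjusted p = 0.0415), lost without day 14 replicate 1 (0.35, 0.171), without day 14 replicate 2 (0.43, 0.126), without day 5 replicate 2 (0.83, 0.107) in DESeq2 (0.80, 0.126) and with a stricter gate (log2 0.36), and −0.16 (0.418) by clusters. In Ms4a7 macrophages over P2ry12-high microglia 7 of the 8 members that reached the filter in both were called, 5 higher and 2 lower, where 38.3% of 8007 genes were called (22.3% higher and 16.1% lower). Cd36 was called as well but entered only through the macrophages. Mrc1, one of the 5, had 20 UMIs in the microglia and reached the filter, which is set anew for each comparison, in 1 of their 4 sums, at a level within the lymphocyte range. The others not yet named are Cd68 at 0.73 ± 0.14 (adjusted p = 1.65e-06; 0.09 and 0.641 by clusters) and Stab1 at 0.76 ± 0.15 (4.47e-06), the last lost without day 5 replicate 1 (0.67, 0.0674) and without day 5 replicate 2 (0.70, 0.0658). In Ms4a7 macrophages over Ly6c2 monocytes 6 of the 8 members that reached the filter in both were higher and 0 lower, where 24.2% of 7273 genes were called (11.3% higher and 13% lower), with Stab1 at 1.24 ± 0.19 (adjusted p = 0.000275). Cd36, among the 6, had 0 to 26.1 CPM in the monocytes over the 4 libraries, beside 2.00 to 18.1 CPM in lymphocytes. Of the 10 dissociation and stress genes, 9 were tested and 9 were lower in disease-associated phagocytes than in P2ry12-high microglia, Hspa1a at log2 −3.30 ± 0.19 (adjusted p = 2.59e-13). In border-associated macrophages over P2ry12-high microglia 4 of 9 were higher and 0 lower, Hspa1a at 1.39 ± 0.19 (adjusted p = 7.58e-09), and in Ms4a7 macrophages over P2ry12-high microglia 4 were higher and 5 lower, Hspa1a at −1.03 ± 0.15 (1.29e-10). In Ms4a7 macrophages over Ly6c2 monocytes 3 were higher and 2 lower, and the part of these genes in the 4 comparisons was not tested. The day effect in Ms4a7 macrophages differed from that in P2ry12-high microglia for 0 of 9 members in edgeR and 0 in DESeq2, which gave 5 of them no adjusted p, with 0 at an unadjusted p under 0.05 by either tool, where 0.724% of 8007 genes were called, and this does not show that the day effects are alike. With clusters in place of gates Stab1 was called there, at 1.12 (adjusted p = 0.0348) against 0.00 by gates.

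Bridging ligands and opsonins, which tie a receptor to its cargo, rose and fell. Gas6, the ligand shared by AXL and MERTK, was 42.0 and 34.6 CPM in Ms4a7 macrophages on day 14, against 81.3 and 106 CPM on day 5, and fell there (log2 −1.28 ± 0.23, adjusted p = 0.00217) while Axl rose. It was higher in disease-associated phagocytes than in P2ry12-high microglia (0.90 ± 0.13, adjusted p = 2.40e-06), and Ms4a7 macrophages had 319 UMIs of it in all, against 18 in Ly6c2 monocytes. Pros1, which encodes protein S, was lower in Ms4a7 macrophages than in P2ry12-high microglia (−3.08 ± 0.19, adjusted p = 3.09e-56). Apoe, a lipoprotein that TREM2 binds, rose in disease-associated phagocytes (0.87 ± 0.08, adjusted p = 1.33e-06) and fell in Ms4a7 macrophages (−0.38 ± 0.09, 0.0233). Lgals3, a galectin that binds MERTK, fell in disease-associated phagocytes (−0.93 ± 0.21, adjusted p = 0.00918). Of the genes of this list tested for the day effect, 1 rose and 2 fell of 6 in disease-associated phagocytes, 1 rose and 2 fell of 7 in Ly6c2 monocytes, and 2 rose and 2 fell of 10 in Ms4a7 macrophages, where 10.2%, 5.20% and 6.81% of all genes were called in the same order.

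Among other uptake receptors, Fcgr1, the high-affinity IgG receptor, rose in all 3 populations with calls. Ms4a7 macrophages had 610.0 and 645 CPM on day 14, against 267 and 296 CPM on day 5, and the log2 fold change was 1.20 ± 0.14 (adjusted p = 4.34e-05). In Ly6c2 monocytes it was 1.32 ± 0.19 (adjusted p = 0.00584) and in disease-associated phagocytes 0.64 ± 0.15 (0.00936). Clec4n, which encodes the C-type lectin Dectin-2, rose in Ms4a7 macrophages (0.99 ± 0.16, adjusted p = 0.00129), while the integrin subunit Itgb5 fell (−0.69 ± 0.15, 0.00773). Timd4, a phosphatidylserine receptor of resident macrophages, was 72.5 and 60.2 CPM in border-associated macrophages on day 5 and 0 and 0.531 CPM in P2ry12-high microglia of the same libraries, with 1 UMI in the microglia, so that it entered the test only through the macrophages. In all, 2 rose and 0 fell of 14 tested in disease-associated phagocytes, 1 rose and 0 fell of 16 in Ly6c2 monocytes, and 3 rose and 1 fell of 17 in Ms4a7 macrophages, beside 10.2%, 5.20% and 6.81% of all genes called in those fits.

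Genes of lipid handling after uptake moved in both directions. Plin2, which coats lipid droplets, was 186 and 233 CPM in disease-associated phagocytes on day 14, against 741 and 716 CPM on day 5. It fell there (−1.69 ± 0.15, adjusted p = 8.52e-07) and in Ms4a7 macrophages (−1.17 ± 0.17, 0.000499). Npc2, which carries cholesterol out of lysosomes, rose in disease-associated phagocytes (0.67 ± 0.10, adjusted p = 0.000298), Ly6c2 monocytes (0.98 ± 0.14, 0.00584) and Ms4a7 macrophages (0.71 ± 0.11, 0.000871). The cholesterol exporter Abca1 rose in disease-associated phagocytes (0.80 ± 0.21, adjusted p = 0.0188) and in Ly6c2 monocytes (2.43 ± 0.41, 0.0118). Counted over the list, 3 rose and 1 fell of 10 tested in disease-associated phagocytes, 2 rose and 0 fell of 10 in Ly6c2 monocytes, and 1 rose and 1 fell of 12 in Ms4a7 macrophages, set against the same 10.2%, 5.20% and 6.81% of all genes.

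Of the receptor signalling and engulfment genes, 1 of 16 tested rose in disease-associated phagocytes, where 10.2% of all genes were called (Grb2, an adaptor, 0.94 ± 0.24, adjusted p = 0.0197). In Ms4a7 macrophages 1 of 17 fell, where 6.81% of all genes were called (Elmo1, which helps activate RAC in engulfment, −0.89 ± 0.23, adjusted p = 0.0282). In Ly6c2 monocytes edgeR called 9 of the 59 genes of the 5 lists tested (21 at an unadjusted p under 0.05, 4 in DESeq2), where 5.20% of all genes were called, and none of the 9 was a signalling gene. Between populations Elmo1 was lower in disease-associated phagocytes (−1.13 ± 0.17, adjusted p = 1.11e-05), border-associated macrophages (−1.94 ± 0.37, 2.67e-05) and Ms4a7 macrophages (−1.19 ± 0.16, 5.31e-12) than in P2ry12-high microglia. Inpp5d, the lipid phosphatase SHIP1 that restrains TREM2 signalling, was also lower in disease-associated phagocytes (−1.31 ± 0.15, adjusted p = 9.81e-08), border-associated macrophages (−1.02 ± 0.27, 0.00457) and Ms4a7 macrophages (−0.73 ± 0.15, 6.82e-06). In P2ry12-high microglia 0 of the 55 genes of the 5 lists tested had a called day effect in edgeR and 0 in DESeq2, which left 6 without an adjusted p, with 9 and 5 at an unadjusted p under 0.05, where 0.611% of all genes were called.

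The genes whose pattern was most like 4 of the members were found over 32 sums of 9 populations, as Pearson correlations of log2(CPM + 10) among 4954 genes, and these describe sums that share libraries. Trem2 was closest to C1qb (0.976), Ang (0.968) and C1qc (0.967). Mertk was closest to Cx3cr1 (0.925) and Ccl12 (0.898). Cd36 was closest to Cbr2 (0.857), Dab2 (0.827) and Pf4 (0.792), and Mrc1 to Lyve1 (0.889), Cbr2 (0.865) and Ccl24 (0.816). C1qb, C1qc, Cx3cr1, Cbr2, Pf4 and Lyve1 are genes of the gates, so they differ between these populations by construction. The levels of Trem2, Mertk and Cd36 by population are thus, like that of Mrc1, not independent of the gates.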

How the data were processed

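The deposited matrices hold UMI counts per gene and cell barcode, not normalized, made by the authors with Cell Ranger 3.0.1 on GRCm38 (mm10), with Seurat 2.3.4 also named, per the submitters' processing notes; other steps are not given in the sources used here. All 4 matrices were used and 0 columns of values were left out. Cells with 200 or more genes and at most 10% mitochondrial UMIs were kept (10841 of 10925 barcodes), and 567 cells with both lymphoid, dendritic or neutrophil genes and high complement C1q genes were removed; no doublet caller was used. Gates rest on 65 genes, none of them a receptor of the set, and their limits were set after seeing the marker distributions. The members and gene lists were chosen with earlier results of these data known.

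UMIs were summed per library and population (10 or more cells) and tested with edgeR 4.0.16 (TMM, filterByExpr, quasi-likelihood) over all genes, Benjamini-Hochberg threshold 0.05, with library as a block between populations; the SE is the log2 fold change divided by the root of F. Some of the fits were also run on simulated data. The outcome is not reported here, so this is no support for them. In the fits that set Ms4a7 macrophages against P2ry12-high microglia, p was that of a normal deviate of the log2 fold change over its SE. A gene's own spread between libraries thus added almost nothing there, and those p-values are not on the scale of the other fits. The fit of border-associated macrophages over P2ry12-high microglia had 4 sums, from the day 5 libraries only. There too p rested mostly on the spread pooled over genes and little on a gene's own, so its p-values need the same caution. DESeq2 1.42.0 was an alternative, with filters, gates, Leiden clusters (scanpy 1.11.5, receptors left out) and each library left out. Named list genes are up to 4 per list and comparison with the smallest adjusted p. Of the genes with a pattern like a member's, 1 is not reported here. Replicates of a day differed by more than sampling noise (chi-square per gene 23.6 on day 14 and 16.6 on day 5). Same-numbered libraries did not deviate together, so no pairing was used. Precision is limited by UMIs per sum, and counting says nothing of spread between mice. Sequences are from RefSeq, GRCm38.p6. In the annotation, Mertk, Stab1 and Mrc1 overlap other genes, whose reads may not be separable from theirs.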

Additional observations from a re-analysis of the deposited data

Results flagged for a closer look

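Trem2 levels of the 2 days did not overlap in 4 populations, with day 14 above day 5 in 3 of them and below it in Ms4a7 macrophages. The log2 fold change of day 14 over day 5 was 0.30 in P2ry12-high microglia, 0.39 in disease-associated phagocytes and 0.31 in Ly6c2 monocytes, where the level is that of lymphocytes, and it was −0.073 in Ms4a7 macrophages. By gates only the value in disease-associated phagocytes passed the test (adjusted p = 0.0217), and that in Ms4a7 macrophages had an adjusted p of 0.828. With clusters Ly6c2 monocytes passed (0.88, adjusted p = 0.00450) and Ms4a7 macrophages had 0.45 (0.200), the other sign. The Ly6c2 monocyte clusters include the Cfb-led one, which held 58 of 85 and 148 of 167 gated Ms4a7 macrophages on day 14. On day 5 it held 13 of 265 and 12 of 249, and the part of this in the 0.88 was not tested. The difference between Ms4a7 macrophages and P2ry12-high microglia was −0.33 ± 0.20 (adjusted p = 0.715, edgeR) by gates and 0.10 (0.917) by clusters, and the other differences between populations were not tested.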

How the results depend on the processing

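Of 37 member calls, 23 were kept under every alternative fitted and 14 were lost under at least 1. Some of the 37 entered the test only through the higher group. Of these, Cd36, Cd163 and Mrc1 in border-associated macrophages over P2ry12-high microglia were kept under every alternative. So were Cd36 in Ms4a7 macrophages over P2ry12-high microglia and Mertk in Ms4a7 macrophages over Ly6c2 monocytes. Cd163 by day in Ms4a7 macrophages was lost under some. For genes that entered this way, being kept adds no support. Of 47 results not called, 8 were called under at least 1 with the same sign and 3 with the other. With clusters in place of gates 19 of 73 member values changed sign, of which 15 were called neither by gates nor by clusters and 4 by either: Msr1 by day in Ms4a7 macrophages (−1.56), Axl in disease-associated phagocytes over P2ry12-high microglia (−0.16), Cd68 in border-associated macrophages over P2ry12-high microglia (−0.78) and Tyrobp in Ms4a7 macrophages over P2ry12-high microglia (−0.30); the cause was not tested. The counts of all genes called moved further. By day in P2ry12-high microglia 34 became 0 with no filter, 15 with 10 or more UMIs in every sum, 18 at the highest library floor (1317 UMIs per cell), 381 with clusters and 20 to 75 with a library left out. In disease-associated phagocytes 481 became 139 in DESeq2, 176 with a stricter gate, 214 with clusters and 83 to 449 with a library left out. In Ly6c2 monocytes 284 became 154 in DESeq2, 657 with no filter, 559 with mixed cells kept, 635 with clusters and 184 to 417 with a library left out. In Ms4a7 macrophages 498 became 274 in DESeq2, 306 with a stricter gate, 108 with clusters and 422 to 689 with a library left out. Disease-associated phagocytes over P2ry12-high microglia had 2257, against 1036 in DESeq2, 379 with 10 or more UMIs, 1110 with a stricter gate, 3484 with clusters and 801 to 2303 with a library left out. Border-associated macrophages over P2ry12-high microglia had 853, against 255 in DESeq2, 428 with 10 or more UMIs and 1396 with clusters. Ms4a7 macrophages over Ly6c2 monocytes had 1761, against 918 in DESeq2, 1024 with 10 or more UMIs and 1205 to 1474 with a library left out, and over P2ry12-high microglia 3070, against 1718, 407 and 1578 to 2911. The difference of day effects had 58, against 5 in DESeq2, 28 with 10 or more UMIs, 101 at the highest floor, 108 with clusters and 14 to 47 with a library left out. The border macrophage cluster had 17, and 18 to 36 with a library left out. Shares of cells with a UMI, thinned to 1000, were 27% (day 14) and 17% (day 5) for Axl in Ms4a7 macrophages, against 75.0% and 51.4% with no thinning and 49.2% and 27.5% at 2000 UMIs; in border-associated macrophages on day 5, thinned to 1000, they were 42.9% for Mrc1 and 22.9% for Cd163, against 80.3% and 47.9% with no thinning and 61.3% and 35.5% at 2000 UMIs.

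With the replicate number as a block the counts were 45 in P2ry12-high microglia, 605 in disease-associated phagocytes, 249 in Ly6c2 monocytes, 587 in Ms4a7 macrophages and 34 in the border macrophage cluster; the correlation of same-numbered libraries was −0.28 to −0.05, so the numbers were not taken as pairs. Crossed numbers, added after seeing the data, gave 12, 535, 561 and 481 in the first 4 of these. The border macrophage cluster was also added after seeing the data. A stricter gate could not be fitted for the day effect in P2ry12-high microglia or the difference of day effects, nor could day effects in gated border-associated macrophages or Cd5l microglia, or border-associated macrophages over P2ry12-high microglia without a day 5 library. Depth limits the day effects in P2ry12-high microglia, with 53 day 14 cells, and in the border macrophage cluster, with 17 and 15.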
